A study of Mus musculus with 2 samples.

Results

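The 42 homeobox genes described here come from the Nkx, Dlx, Irx, Six2 to Six6, Lhx and Isl, Emx and Otx, Msx and Pitx, and Gsx families. They were listed by name, without the clustered Hox genes, and all 42 matched a gene model among 21887 protein-coding genes of the RefSeq table on GRCm38.p6. Chromatin accessibility around them was measured by ATAC-seq, in which the Tn5 transposase cuts and tags open DNA, in mouse GSCs, the cell type abbreviation that the labels use. Both libraries came from Stag3 KO cells of the line Acrosin-EGFP; beta-Actin-EGFP (AAG), sorted as viable and AAG-positive, and Stag3 encodes a cohesin subunit. The labels give no age, clone or further allele, and do not say how the replicates were separated, so the spread between the libraries may be technical. There was 1 group of 2 libraries. The wild-type cells that the design text names for comparison were not analysed here, so no value below is an effect of the knockout, and no test between groups was possible.

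Homeobox genes encode transcription factors that bind DNA through the homeodomain, a compact helical fold. Most of the factors named here specify regions or cell types of the embryo, such as the ventral forebrain, the heart, the jaw, the limb or the kidney, and are not known as regulators of spermatogonia. In many cell types that do not use them, genes of this kind lie in CpG-rich chromatin held by Polycomb repressors. Accessibility is not transcription, and no RNA or histone mark was measured here.

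Each library was deposited as a list of peaks called on its own, with 107331 peaks in replicate 1 and 98986 in replicate 2. The fold of a peak is the authors' value, the tags at the summit over those expected from local background, and its median over all peaks was 8.78 and 8.73. Read totals were not given, but fold and p-value together returned whole tag numbers at the summits, with a median of 40 and 41 tags per peak. A site counted as shared where a peak of each library overlapped by at least 1 bp. It was a gene-end site where it touched the 1000 bp on either side of an end of the gene model, and distal where it lay in the gene body or within 50 kb and touched no end of any protein-coding gene. Of marker genes of undifferentiated spermatogonia, 8 of 8 had a shared gene-end site, including Gfra1, Ret, Zbtb16 and Nanos2. Among markers of other cells the sort could hold, 3 of 10 had such a site, namely Sox9, Amh and Col1a1, while Amhr2, Col3a1, Dcn, Ptprc, Adgre1, Cdh5 and Pecam1 had none. A shared gene-end site was present at 65.8% of all protein-coding genes, so these marker counts alone do not identify the cells. The share of any other cells in these libraries was not tested.

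Nearly every gene of the list had an open site at an end of its model, but these sites were narrow and of modest height. A shared gene-end site was present at 39 of 42 genes, or 92.9%, against 65.8% of all protein-coding genes. Irx5, Six3 and Lhx4 had none. In the separate lists, 40 genes had a gene-end peak in replicate 1, against 67.6% of all genes, and 38 had one in replicate 2, against 67.3%. The 42 genes also carried several such sites more often, with at least 2 at 24 genes, or 57.1%, against 25.3% of all genes. Irx1, Lhx5, Isl1 and Pitx1 had the most, 4 each. No test was made of these shares, since the genes were chosen by name with earlier results on these files known.

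The height of these sites pointed the other way. Taking the strongest gene-end site of each gene, the median fold over the 39 genes was 7.73 in replicate 1 and 8.05 in replicate 2, a mean of 7.89 ± 0.23 (SD, n = 2). The same median over the 14392 protein-coding genes with a gene-end site was 15.2 and 16.0, a mean of 15.6 ± 0.58 (SD, n = 2). Of the 39 genes, 32 lay below the median of all genes in both libraries, and 5 lay above it in both. Among all 14392 genes with a site, 6570 lay below it in both and 6570 above it in both. The sites were also narrower, with a median width of 392 and 410 bp against 627 and 608 bp over all genes. Dlx3 alone had a site of 1000 bp or more in both libraries, 1067 and 1034 bp, which is 2.56% of the 39 genes against 5.32% of all genes with a site.

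Fold is a ratio, and both of its parts differed between these genes and all genes. The median number of tags at the summit was 75 and 68, or 71.5 ± 4.95 (SD, n = 2), against 126 and 137, or 131.5 ± 7.78 (SD, n = 2), over all genes. The local background that the peak caller set against them was higher, with a median of 10.4 and 10.6 tags against 7.64 and 8.04. In counts of genes, 26 of 39 had fewer tags than the median of all genes in both libraries, and 11 had more. Among all 14392 genes with a site, 6682 had fewer in both libraries and 6667 had more. Background was above the median of all genes in both libraries at 25 of 39 genes, while 6724 of 14392 genes overall were above it. Fewer tags and a higher background were thus both part of the low fold. Within 10 kb centred on the summit they had a median of 3 shared sites and 1099 bp of shared open sequence, against 2 sites and 943 bp over all genes.

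**Figure D1:**
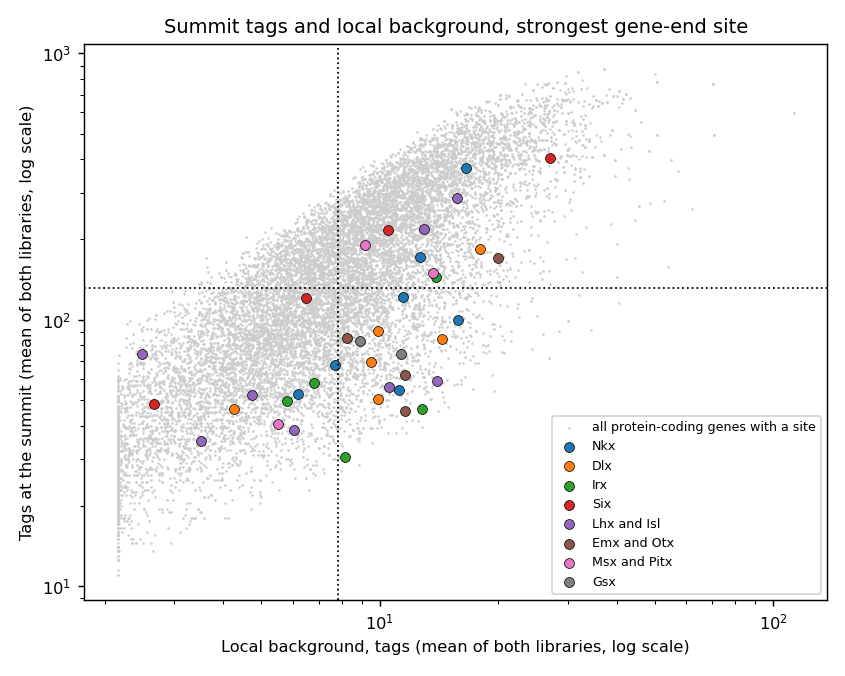
Tags at the summit against local background, both as tags on log axes and as the mean of both libraries, for the strongest gene-end site of each gene. Grey points are all protein-coding genes with a site, coloured points are the 39 homeobox genes by family, and dotted lines mark the medians of all genes, 131.5 tags and 7.84 tags of background. Most coloured points lie to the right of the vertical line and toward the lower edge of the cloud.

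Among the 39 genes the strongest gene-end site varied from under 4-fold in both libraries at Irx2, Irx4 and Otx2 to above 20-fold in both libraries at Nkx6-1 alone. Measured against the median peak of each library, the strongest gene-end site was above it in both at 14 genes: Nkx2-3, Nkx6-1, Nkx6-2, Dlx6, Irx3, Six2, Six4, Six5, Six6, Lhx9, Isl1, Isl2, Msx1 and Msx2. That is 35.9% of the 39 genes, against 78.8% of all genes with a gene-end site. Both libraries gave similar values for most genes. Summit tags differed by more than 1.5 times at 5 genes (12.8%, against 8.79% of all genes with a site), which were Nkx2-1, Dlx4, Lhx9, Emx2 and Gsx2.

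**Figure D2:**
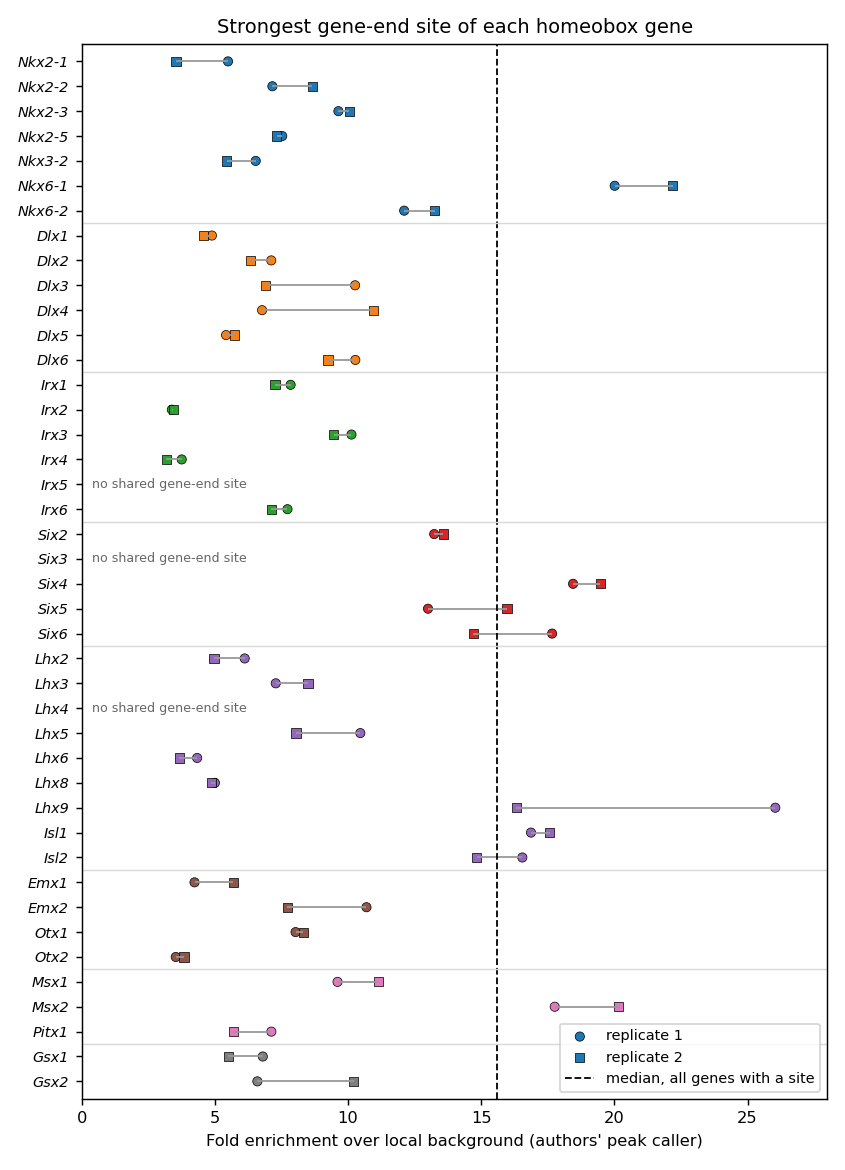
Fold enrichment of the strongest gene-end site of each homeobox gene, with replicate 1 as circles, replicate 2 as squares and colours by family. The dashed line is the median over all protein-coding genes with such a site, 15.6. Nkx6-1, Six4, Msx2, Isl1 and Lhx9 lie beyond the line in both libraries, and Irx5, Six3 and Lhx4 have no shared gene-end site.

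The Nkx genes encode factors of ventral and midline tissues, and all 7 had a gene-end site, with a median fold of 7.53 in replicate 1 and 8.67 in replicate 2. Nkx6-1, which acts in motor neuron progenitors and pancreatic beta cells, had the tallest. Its site at chr5:101665101-101665637 held 346 and 394 tags over a background of 16.3 and 16.8, or 20.01-fold and 22.2-fold. The related Nkx6-2, a ventral neural tube factor, reached 12.1-fold and 13.3-fold with 169 and 175 tags. Both libraries thus placed the Nkx6 pair above the 5 Nkx2 and Nkx3 genes. Nkx2-3, needed in gut and spleen mesoderm, had 127 and 116 tags, or 9.64-fold and 10.1-fold. Nkx2-2, of the ventral neural tube and the endocrine pancreas, reached 7.16-fold and 8.67-fold, and the heart factor Nkx2-5 reached 7.53-fold and 7.32-fold. Nkx3-2, a factor of the axial skeleton, had 114 and 86 tags, but these stood on a background of 16.6 and 14.96 and gave only 6.53-fold and 5.45-fold. Nkx2-1, which specifies thyroid, lung and ventral forebrain, was the weakest at 5.49-fold and 3.54-fold. Its region touched the 1000 bp window by its last base only, and the replicate 2 peak itself lay outside the window.

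Dlx genes lie as neighbouring pairs and pattern the jaw, limb, skin appendages and forebrain interneurons. All 6 had gene-end sites of low fold, with a family median of 6.94 and 6.61. Within the 1000 bp window none was above the median of all genes in either library. With a 2500 bp window the mean fold of both libraries was 20.1 at Dlx4, 14.6 at Dlx1 and 9.74 at Dlx2. The median over all genes was then 16.1, and Dlx3, Dlx5 and Dlx6 kept their values. Dlx6 had the most tags, 202 and 167, on a background of 18.8 and 17.2, which made 10.3-fold and 9.25-fold. Its partner Dlx5 had 88 and 81 tags, or 5.42-fold and 5.74-fold. In the forebrain pair, Dlx1 reached 4.89-fold and 4.56-fold and Dlx2 reached 7.12-fold and 6.34-fold. Dlx3, an ectodermal regulator, had 100 and 81 tags at 10.3-fold and 6.89-fold, and its site at chr11:95119606-95120672 was the widest of the list. Dlx4 had 33 and 59 tags, or 6.77-fold and 10.9-fold, so that the libraries disagreed on which gene of this pair was higher.

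Iroquois (Irx) genes lie in clusters and act in heart, neural and limb patterning. A gene-end site was found at 5 of 6, with the lowest tag medians of the families, 52 and 47, and a median fold of 7.73 and 7.12. Irx3 was the strongest, with 141 and 148 tags at 10.1-fold and 9.45-fold. Irx1 and Irx6 were close to each other, at 7.84-fold and 7.26-fold for Irx1 and 7.73-fold and 7.12-fold for Irx6. Irx2, at 3.38-fold and 3.45-fold, and the heart ventricle factor Irx4, at 3.76-fold and 3.18-fold, were near the lowest values of the list. Irx5 had no shared gene-end site, although replicate 1 alone had peaks of 2.89-fold and 2.81-fold there, with 57 and 56 tags. Outside its window, 1312 bp from the lower end of the gene model, chr8:92355756-92356484 was open at 16.6-fold and 18.3-fold with 326 and 392 tags.

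Six2 to Six6 encode factors of eye, kidney and muscle development, some of which work with Eya coactivators. Taking the strongest gene-end site of each gene, the median fold of Six2 to Six6 was above that of each other family in both libraries. The median fold over the 4 genes with a gene-end site was 15.4 in replicate 1 and 15.3 in replicate 2, about the median of all genes. Six4, expressed in muscle and sensory precursors, had 213 and 221 tags at 18.4-fold and 19.5-fold. Six6, an eye and pituitary factor, had 141 and 101 tags at 17.7-fold and 14.7-fold. Six5 had the most tags of the list, 374 and 434, over the highest background of the list, 27.8 and 26.2, giving 13.0-fold and 16.0-fold. Its region at chr7:19093538-19094378 also touches an end of Dmpk, the myotonic dystrophy kinase gene, so these tags cannot be assigned to Six5 alone. Without sites at ends of other protein-coding genes, the mean fold of Six5 was 3.99, while Six2, Six4 and Six6 kept their values. Six2, which maintains nephron progenitors, had its strongest site at the 3′ end, with 53 and 43 tags over a background of only 3.08 and 2.24, or 13.2-fold and 13.6-fold. The region over its listed start reached 4.05-fold and 4.43-fold. Six3, a forebrain and eye regulator, had no gene-end peak in either library. The 3 shared regions inside its model reached at most 5.0-fold in either library.

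LIM homeobox genes (Lhx and Isl) specify motor neurons, pituitary, forebrain and limb cell types. A gene-end site was present at 8 of 9, with a median fold of 8.87 and 8.27 that hides a wide range. Isl1, of motor neurons and heart progenitors, had 276 and 297 tags at 16.9-fold and 17.6-fold, and Isl2 had 224 and 212 tags at 16.5-fold and 14.8-fold. Lhx9, needed for the gonad to form, had the highest single fold of the list, 26.04 in replicate 1, but 16.3 in replicate 2, on 99 and 50 tags. The best sites of Lhx9 and Isl2 lay at the 3′ end. Near the start site that RefSeq lists for Lhx9, the shared region held 58 and 69 tags at 5.18-fold and 6.16-fold. The other LIM genes were lower. Lhx5, a forebrain gene, had 58 and 46 tags at 10.5-fold and 8.05-fold, and the forebrain and eye factor Lhx2 had 46 and 31 tags at 6.12-fold and 4.97-fold. Lhx6 and Lhx8, both of ventral forebrain interneurons, reached 4.33-fold and 3.67-fold and 5.00-fold and 4.86-fold in turn. Lhx3, a pituitary factor, had few tags, 28 and 42, at 7.29-fold and 8.5-fold, and its region also touches an end of Qsox2. The related Lhx4 had no gene-end site, and its 5 shared sites all lay within the gene body. The strongest, at chr1:155722212-155722529, had 45 and 59 tags, or 14.4-fold and 19.2-fold. The start that RefSeq lists for Lhx4 lies inside this longer model, and 3 of its shared sites lay within 1000 bp of it. The strongest of these held 60 and 66 tags, at a fold below the median peak of each library.

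Emx and Otx genes pattern the anterior head and brain, and their gene-end sites had the lowest median fold in replicate 1, 6.13, with 6.71 in replicate 2. Otx2 was the weakest, with 43 and 48 tags at 3.53-fold and 3.84-fold. Otx1 had more tags, 171 and 170, above the median of all genes in both libraries, but a background of 20.4 and 19.5 held it at 8.03-fold and 8.33-fold. Emx2, which acts in the cerebral cortex and the urogenital tract, had 104 and 66 tags at 10.7-fold and 7.72-fold. Emx1, a cortical gene, had 50 and 74 tags at 4.24-fold and 5.70-fold. In the remaining families, Msx2, a bone morphogenetic protein target in skull and limb, had 183 and 199 tags at 17.8-fold and 20.2-fold. Msx1, which acts in tooth and palate, had 150 tags in each library at 9.61-fold and 11.1-fold. Pitx1, a determinant of the hindlimb, was far lower at 7.12-fold and 5.69-fold, with 44 and 37 tags. The ventral forebrain genes Gsx1 and Gsx2 reached 6.80-fold and 5.51-fold and 6.60-fold and 10.2-fold in turn, and each was higher than the other in 1 of the libraries.

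Start sites were compared where the RefSeq promoter table lists them, for 32 of 42 genes, or 76.2%. A shared region lay within 1000 bp of a listed start at 27 of these, or 84.4%, against 65.9% of all listed genes. Nkx2-1, Nkx2-5, Nkx3-2, Irx4 and Six3 had none. The median fold of the regions at these 27 genes was 9.64 and 10.1, against 15.4 and 16.4 over all genes with such a region. Median tags were 127 and 105 against 133 and 146, and background was 11.1 and 11.5 against 8.04 and 8.44. Seen from the start site, tags in replicate 1 were thus close to those of other genes, while background was higher in both libraries. For 30 genes with both a gene-end site and a listed strand, the strongest site lay at the 5′ end of the gene model in 24. It lay at the 3′ end in 6, namely Nkx2-1, Nkx3-2, Irx4, Six2, Lhx9 and Isl2. The 5′ end of a model is not always a listed start. At Nkx2-2, Nkx2-5 and Irx2 the strongest gene-end site lay more than 1000 bp from the listed start.

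Several starts lie inside a longer gene model, so that their sites were classed as distal. This applies to sites covering a listed start of Irx2, Lhx2, Isl2 and Otx2. At Lhx2 such a site held 367 and 416 tags, or 16.2-fold and 16.3-fold, far more than the 46 and 31 tags at its gene end. At Irx2 the site over the start held 202 and 216 tags at 12.3-fold and 13.4-fold, against 48 and 44 tags at the gene end. At Isl2 it held 346 and 357 tags at 17.8-fold and 17.5-fold. At Dlx1 the region with summits 268 bp from the start held 151 and 167 tags at 13.9-fold and 15.3-fold. Lhx2, Irx2 and Dlx1, which looked weak at their gene ends, were therefore above the median peak of both libraries near their starts.

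The 250 bases upstream of the listed start are shown for 6 genes to set tall, weak and absent sites beside their sequence. They come from RefSeq on GRCm38.p6, are all on the minus strand and are written 5′ to 3′, with every CpG in capitals. At Msx2, Six4 and Isl1 these bases lie wholly in the shared region described above. At Six2 they lie in a weak region, and at Nkx6-1 and Nkx3-2 no shared region overlaps them.
Msx2, chr13:53472781-53473030: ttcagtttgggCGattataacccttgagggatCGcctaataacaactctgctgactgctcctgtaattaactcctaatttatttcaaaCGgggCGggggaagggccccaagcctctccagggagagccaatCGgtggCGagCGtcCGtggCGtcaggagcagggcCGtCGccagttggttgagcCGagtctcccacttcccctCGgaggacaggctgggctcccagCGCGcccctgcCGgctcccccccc
Six4, chr12:73113426-73113675: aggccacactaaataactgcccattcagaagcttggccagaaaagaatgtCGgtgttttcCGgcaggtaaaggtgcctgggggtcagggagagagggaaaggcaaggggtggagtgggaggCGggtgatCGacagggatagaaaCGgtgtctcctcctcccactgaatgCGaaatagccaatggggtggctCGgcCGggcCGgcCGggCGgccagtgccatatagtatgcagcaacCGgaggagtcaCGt
Isl1, chr13:116309689-116309938: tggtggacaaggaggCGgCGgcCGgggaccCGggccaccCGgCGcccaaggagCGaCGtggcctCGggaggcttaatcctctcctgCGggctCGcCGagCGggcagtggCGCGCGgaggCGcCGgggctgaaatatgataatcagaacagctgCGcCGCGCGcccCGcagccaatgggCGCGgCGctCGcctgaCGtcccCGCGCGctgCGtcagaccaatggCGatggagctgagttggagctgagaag
Six2, chr17:85688255-85688504: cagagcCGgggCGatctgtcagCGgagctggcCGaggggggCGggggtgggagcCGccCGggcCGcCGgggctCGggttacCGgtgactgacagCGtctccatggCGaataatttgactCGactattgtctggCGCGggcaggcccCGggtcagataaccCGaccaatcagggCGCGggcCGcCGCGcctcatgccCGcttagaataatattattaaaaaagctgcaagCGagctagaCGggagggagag
Nkx6-1, chr5:101664712-101664961: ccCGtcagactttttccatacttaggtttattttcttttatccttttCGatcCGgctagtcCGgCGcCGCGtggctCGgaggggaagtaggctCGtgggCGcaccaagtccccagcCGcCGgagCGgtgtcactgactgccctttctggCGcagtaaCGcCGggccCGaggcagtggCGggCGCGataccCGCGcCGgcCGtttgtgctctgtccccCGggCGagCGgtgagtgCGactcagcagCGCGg
Nkx3-2, chr5:41764221-41764470: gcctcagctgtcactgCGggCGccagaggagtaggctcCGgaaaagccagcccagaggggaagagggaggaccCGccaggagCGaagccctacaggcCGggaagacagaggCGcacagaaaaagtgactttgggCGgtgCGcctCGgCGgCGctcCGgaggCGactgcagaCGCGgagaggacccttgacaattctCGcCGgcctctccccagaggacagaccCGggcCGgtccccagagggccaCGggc

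Among these 6 promoters, which hold 13 to 33 CpGs and were picked to show unlike sites, CpG number did not follow site height. Msx2 had 16 CpGs and Six4 had 13, under sites near 18-fold to 20-fold. Isl1, with 33, had a site nearly as tall. Six2 had 26 CpGs under a site of only 4.05-fold and 4.43-fold, with 51 and 63 tags. Nkx6-1 had 30 CpGs, and its tall site lay upstream, at a mean summit position of -710.5 bp, where negative is upstream of the start. Nkx3-2 had 21 CpGs, and peaks of about 3-fold near its start were called at different places in the 2 libraries and did not overlap. Over all 40 listed promoters of the 32 genes the number ran from 4 to 33 with a median of 15.5, against a median of 6 over 32817 promoters of the table. Since 10 of the 42 genes have no entry, that median is not compared further. Of the 40, 11 lay wholly in a shared region with the summits of both libraries inside them, and these held 11 to 33 CpGs. Promoters with the fewest CpGs, such as those of Lhx8 and Lhx9 with 4 each, overlapped no shared region. A relation between CpG number and accessibility was not tested. The letters CCAAT, searched on both strands, occurred once in Msx2, Six4 and Six2, at 2 places in Isl1, and in neither Nkx promoter, while 33.8% of all listed promoters hold them. TAATTA, the core that many homeodomains bind, occurred only in the Msx2 promoter among these 6, and 4.85% of all listed promoters hold it. These matches describe letters and show no binding.

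Distal sites were more numerous around the homeobox genes than around most genes. The median was 6 per gene against 4 over all protein-coding genes, 32 of 42 genes were above that value and 9 were below it. The share of all genes on either side of that value is not given here. Their models were shorter, with a median of 6496.5 bp against 17169 bp, and they had fewer protein-coding neighbours within 50 kb, a median of 1 against 3. Fewer neighbours leave more of the flank to be counted as distal, and the part of this in the count was not tested. Where sites at ends of neighbouring genes were counted as well, the median was also above that of all genes. Otx2 had the most with 12, followed by Lhx2 with 11 and Six2 with 10. Nkx6-2, Six6 and Otx1 had 1 each. Among families the median ran from 3 per gene in Irx to 8 in Msx and Pitx and in Gsx.

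**Figure D3:**
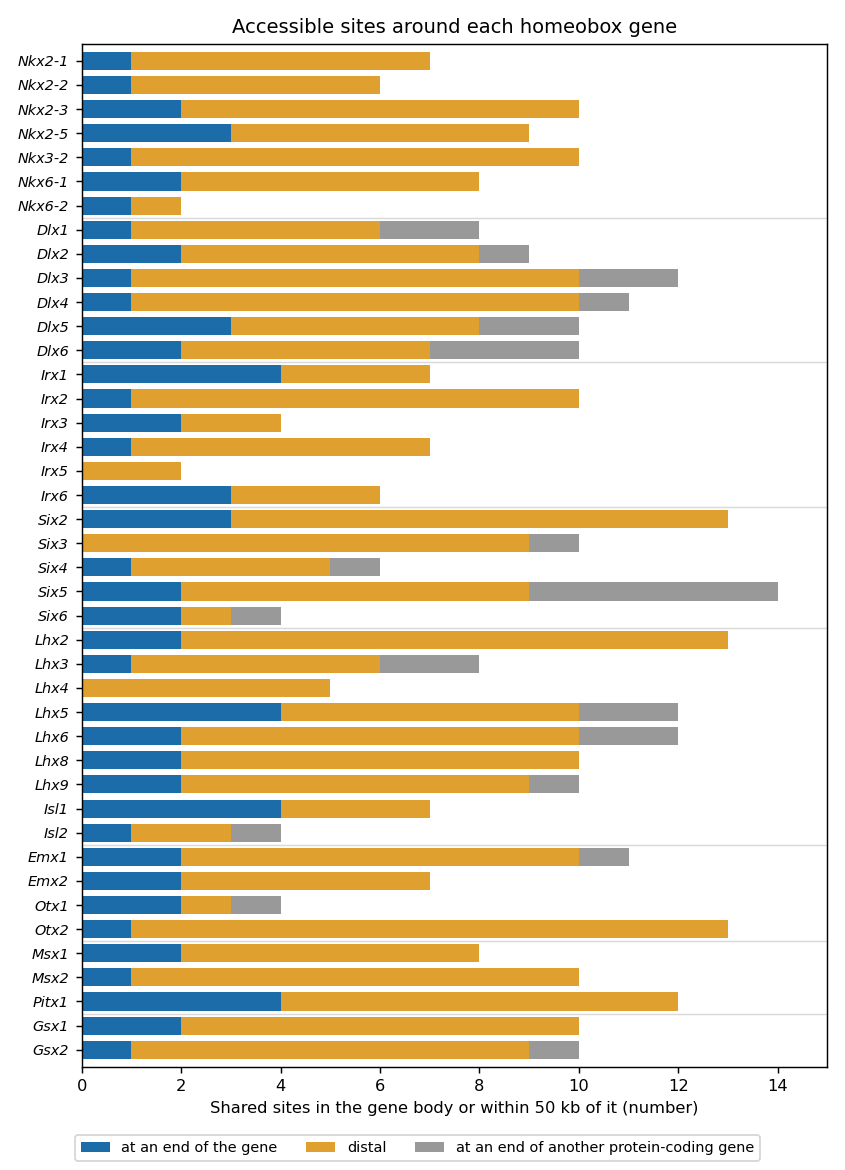
Number of shared sites in the body of each homeobox gene or within 50 kb of it, split into sites at its own ends, distal sites and sites at an end of another protein-coding gene. Totals run from 2 at Nkx6-2 and Irx5 to 14 at Six5, and distal sites make up the largest part at most genes.

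Counting each region once, the 42 genes had 327 regions. Of these 233 were distal, 75 lay at an end of a listed gene and 19 lay only at ends of other genes. Among the 75, 11 also lay near a listed neighbour and were counted there as sites at the end of another gene. Of the distal regions 58 touched the gene body, and 26 of these belonged to Lhx and Isl genes, whose models are longer. The distal regions were weaker than distal regions in general, with a median fold of 7.02 and 7.01 against 10.6 and 10.1 over all genes. Tags were similar, 43 and 42 against 48 and 45, and background was higher, 4.24 and 4.44 against 3.16 and 3.04. Above the median fold of both libraries lay 86 of 233, or 36.9%, against 49.6% of all distal regions. The same held at gene ends, where it was 15 of 75 regions, or 20%, against 57.0% of all gene-end regions.

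**Figure D4:**
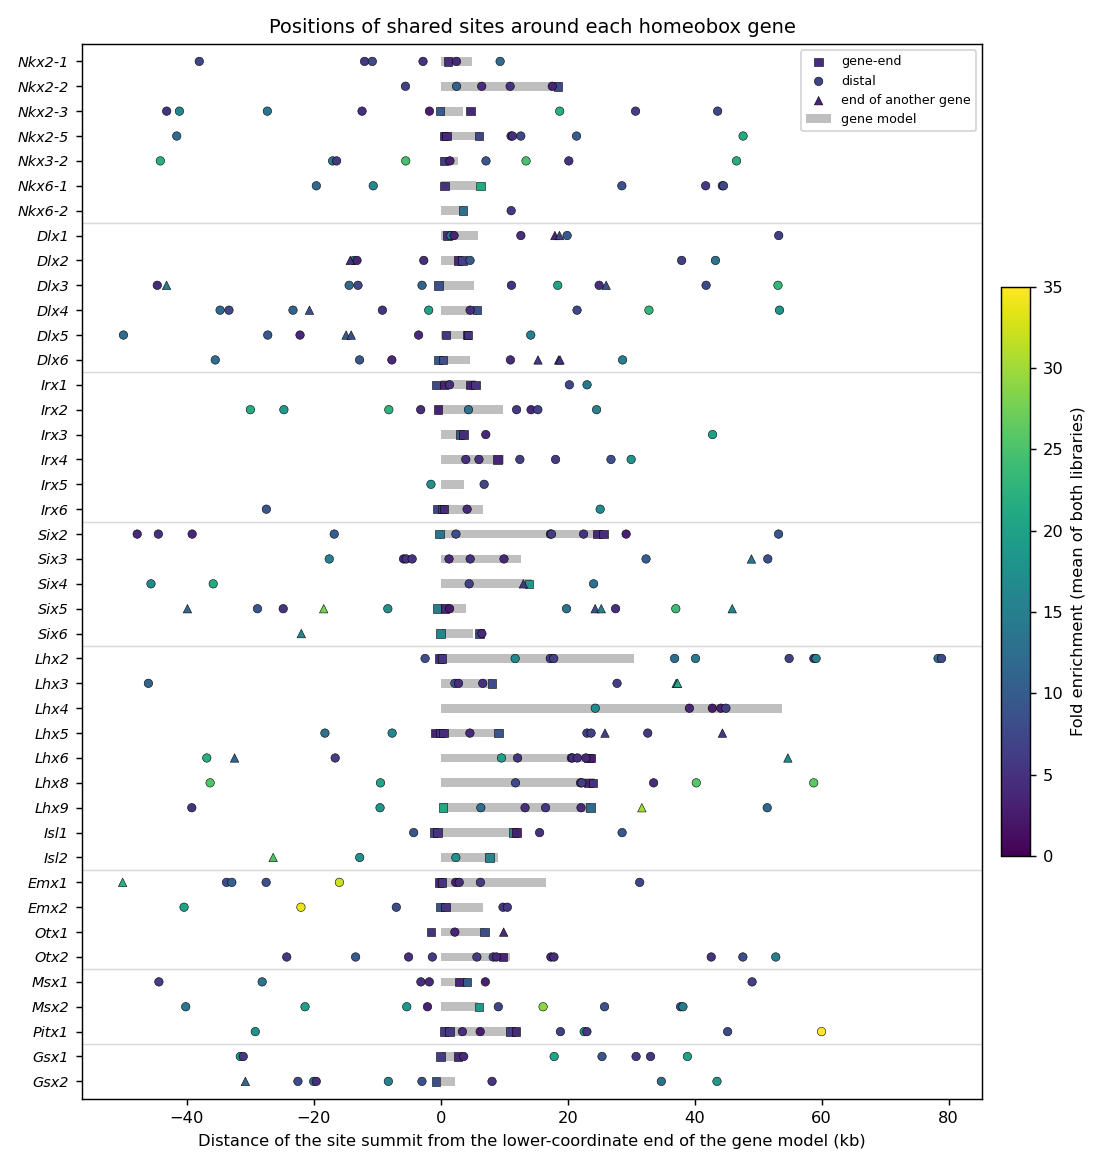
Summit positions of shared sites around each homeobox gene, in kb from the lower-coordinate end of its model (grey bar), coloured by fold as the mean of both libraries. Squares are gene-end sites, circles are distal sites and triangles lie at an end of another protein-coding gene. The brightest circles, near Emx1, Emx2 and Pitx1, lie outside the gene models.

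Tall sites made up a smaller share of these distal regions than of distal regions in general. Above 20-fold in both libraries lay 15 of 233 distal regions, or 6.44%, against 14.1% of all distal regions. Regions of any class past that fold numbered 21, of which 1 was the gene-end site of Nkx6-1 and those neither distal nor at Nkx6-1 lay at ends of neighbouring genes. The tallest, chr13:55884817-55885234, lay 48627 bp from Pitx1 and held 251 and 297 tags at 35.6-fold and 36.9-fold (percentile 99.8 and 99.9 of all peaks by fold), while the best gene-end site of Pitx1 was under 8-fold. Next came chr19:59436409-59436888, 21802 bp from Emx2, with 336 and 278 tags at 34.96-fold and 33.1-fold. The third, chr6:85171752-85172191, lay 15740 bp from Emx1, with 218 and 215 tags at 33.2-fold and 31.2-fold. All 3 were therefore at genes whose own ends were weak or moderate. Msx2 had both a tall gene end and a tall distal site, chr13:53482813-53483191, 10033 bp away, at 30-fold and 27.96-fold. Nkx3-2 and Lhx8 had 3 distal sites each above 20-fold in both libraries, though their own ends stayed under 7-fold. The others were single sites at Nkx2-3, Irx2, Six5, Lhx6 and Gsx1. Distance alone does not assign a site to a gene, and some of these sites may belong to other genes.

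The strongest distal site was taller than the strongest gene-end site in both libraries at 30 of 39 genes, or 76.9%, against 62.4% of all genes with both kinds. Its median fold was 17.8 and 16.6, below the 21.8 and 21.7 over all genes, so the order within these genes came with lower values of both kinds. Among Six2 to Six6 this was so at 1 gene, Six5. At Six4 the strongest distal site differed between libraries, with 209 tags and 30.8-fold in replicate 1 against 36 tags and 11.8-fold in replicate 2. The strongest distal site of the Dlx5 and Dlx6 pair fell apart in the same way, at 21.0-fold and 8.64-fold.

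Neighbouring genes shared many of these sites, so their counts are not independent. Dlx5 and Dlx6, 9830 bp apart, shared 10 of 10 distinct regions. Dlx1 and Dlx2, 9426 bp apart, shared 8 of 9, and Dlx3 and Dlx4, 15150 bp apart, shared 10 of 13. Six2 and Six3, 36544 bp apart, shared 6 of 17. No region lay at the ends of both genes of any of these pairs. In all, 23 distal regions were counted with 2 genes of the list.

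Related lists place these values. Of 69 other developmental homeobox genes, such as the Alx, Barhl, Cdx and Phox2 genes, 58 had a gene-end site, or 84.1%. Their median fold was 7.51 and 8.14, close to that of the 39 genes, but their median tags were lower, 55.5 and 56, and their background, 7.13 and 7.58, was slightly under that of all genes. Of 28 broadly expressed homeobox genes, such as Pbx, Meis and Zeb genes, 24 had a gene-end site, or 85.7%, with a median fold of 10.7 and 10.1 over a background of 10.2 and 11.2. Of 20 genes for partners of homeodomain proteins, such as Ldb, Eya and Tle genes, 17 had one, or 85%, with 14.8-fold and 17.2-fold, near all genes, over a background of 10.7 and 11.1. A background near that of the 39 genes was thus also seen in both of these lists. No test was made between these lists.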

How the data were processed

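ATAC-seq peaks of 2 libraries of 1 group, grouped by their titles, were analysed. The submitters' processing notes list MACS2 2.1.1, a peak caller, along with Bowtie2 2.3.4.1, Picard 2.18.23, Trim Galore, deepTools 3.5.0 and bedtools 2.29.2. They give mm10 and GRCm38.p3 as builds. How these were set, for example for duplicates and the Tn5 shift, which affect heights and summits, is not given in the sources used here. The deposited lists give, per peak, a fold ratio over local background, a −log10 p-value and q-value, and a score, all made by the authors. The deposited score was not used.

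Tags at each summit were recovered from the fold, read as (tags + 1) / (background + 1), and a Poisson p-value. Exactly 1 whole number satisfied both at 100% of peaks in either library (tolerance 1e-05 relative, 0.0001 absolute on −log10 p). Read depth is unknown, so tags limit the precision, and no interval is given. Shared regions are unions of a replicate 1 peak and its most overlapping partner in replicate 2. Each gene is described by its gene-end site of highest mean percentile of fold.

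The genes and lists were chosen with earlier results of these data known, and no test was run. All 42 genes are named, in both libraries. Of the other developmental list, Ventx was not matched and Drgx was matched as Prrxl1. Python 3.11.15, pandas 2.3.3, numpy 2.4.6 and scipy 1.17.1 were used, and the tag recovery was tested on simulated data. Alternatives covered overlap, peak strength, windows, flanks and leaving out a library.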

Additional observations from a re-analysis of the deposited data

How the results depend on the processing

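The number of homeobox genes with a gene-end site was 14 among peaks above the median fold of each list (52.1% of all genes) and 14 among the 50000 peaks of highest fold (50.8%), which removes weaker peaks by construction and puts the list below all genes. With a single library it was 38 to 40. Taking the median over all gene-end sites of a gene gave 6.46-fold, 381 bp and 59 tags, and a window of 2500 bp gave 9.54-fold, 385 bp, 87.5 tags and a background of 9.95. Without sites at ends of other protein-coding genes, an alternative added after seeing the data, the median was 7.57-fold and 386 bp. At the shared sites, leaving out a library only restates the medians given above, 7.73 to 8.05-fold, 392 to 410 bp, 68 to 75 tags and a background of 10.4 to 10.6. With the peaks of a single library the median was 7 to 8 distal sites. Fold, width and tags were below, and background above, those of all genes in 6 of 6 alternatives. These include the restated library values and a limit of 5 on −log10 q, which left the medians of the 39 genes unchanged. The median number of distal sites was 10.5 within 100 kb (8 over all genes) and was above all genes in 8 of 8 alternatives. Within 25 kb the distal regions numbered 14 for Msx and Pitx and 9 for Gsx. The causes of these shifts were not tested. No paired analysis was possible because there was 1 group only. Sites with few tags, such as those of Lhx3, Irx4 and Dlx4, are the least precise.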

Other observations

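Some gene-end peaks were called in 1 library only. They enter the counts of genes per library above, but no shared site. The tallest was at the higher end of Lhx2, chr2:38368716-38369152, with 78 tags at 18.4-fold in replicate 1. At Lhx6 a replicate 2 peak held 17 tags at 5.76-fold. At the start of Nkx3-2, replicate 1 had a peak of 3.22-fold with 63 tags and replicate 2 a peak of 3.27-fold with 66 tags, close by but without overlap.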
